A study of Macaca fascicularis with 48 samples.

Results

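The potassium channel gene family was described here in cynomolgus monkeys (Macaca fascicularis) over 6 tissues, which were liver, spinal cord at the cervical, thoracic and lumbar level, and dorsal root ganglia of the neck (cervical) and lower back (lumbar). A row of the deposited table belonged to the family when its gene name began with KCN followed by a letter, and it was kept when its mean in at least 1 of the 6 tissues reached 0.5 CPM, the counts of a gene scaled to a library total of 1000000. Of 16842 gene names, 87 matched the name pattern and 80 passed this level. The members nearest above the level were KCNG2 (0.572 CPM in its highest tissue), KCNE3 (0.725) and KCNA3 (0.849), and the nearest below it were KCNK7 (0.250), KCNV2 (0.238) and KCNA7 (0.213). The level was reached in all 6 tissues by 24 members and in 1 tissue only by KCNJ15 in liver and KCNJ6 in lumbar cord. Family genes that the file does not name, such as KCNA4 and KCNJ10, were not analysed here.

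Potassium channels let potassium ions cross the membrane, which sets the resting potential of a cell and ends its action potentials. Voltage-gated (Kv) pore subunits open on depolarisation and work with auxiliary subunits, silent Kv subunits join other pore subunits without forming a channel of their own, and channels gated by calcium or sodium, two-pore leak channels and inward rectifiers respond to other signals. In sensory neurons of the dorsal root ganglia, the clusters of cell bodies beside the cord, these channels hold back repetitive firing, and in glial cells inward rectifiers take up potassium.

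The animals received GS-8873, which the labels call a transcript inhibitor for hepatitis B virus mRNA, by oral gavage at 6 mg/kg/day for 13 weeks, and control animals were dosed at 0 mg/kg/day. Each tissue gave 4 control and 4 treated libraries, with 2 males in each group. The same 4 control animals gave every tissue. The animal codes in the labels name 6 treated animals: 4 gave liver and the 3 cord levels, and the ganglia came from all 6, of which 2 gave both cervical and lumbar ganglia. No age and no genetic modification is given in the sources used here. The counts came from whole tissue, so fewer cells of a type and less RNA per cell cannot be told apart.

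Library totals ran from 35453786 to 53480762 counts. Some libraries stood apart from their labels. Lumbar cord control replicate 1 and treated replicate 1 held 0.26 and 0.09 CPM of the oligodendrocyte gene MOG, against 330 to 657 CPM in the other 6 lumbar cord libraries. Cervical cord control replicate 1 had 334 CPM summed over 10 neuron genes, against 2680 to 10742 in the other cervical cord controls. Thoracic cord control replicate 4, treated replicate 1 and treated replicate 4 had over 30% mitochondrial counts, and cervical ganglia treated replicate 4 had 23.01%. For the members described in most detail in these tissues, changes are also given without these libraries.

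In control animals most members had their highest level in nervous tissue, and a gene could enter the family through nervous tissue alone. Levels between genes were compared as RPKM, which divides CPM by the kilobases of counted exon. The mean control RPKM was highest in ganglia for 39 of the 80 members, in cord for 37 and in liver for 4. Summed over the 80 members, control libraries held 1657 to 2561 CPM in cervical ganglia, 2261 to 2554 in lumbar ganglia, 726 to 1370 in cervical cord, 762 to 1067 in thoracic cord, 557 to 1746 in lumbar cord and 228 to 320 in liver. The lumbar cord range, whose lowest library is the one with almost no MOG, overlapped with cervical ganglia at its upper end. The silent subunits leaned to ganglia, with 7 of 9 members highest there, and all 3 Kv3 pore subunits, which serve fast repetitive firing, were highest in cord.

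**Figure D1:**
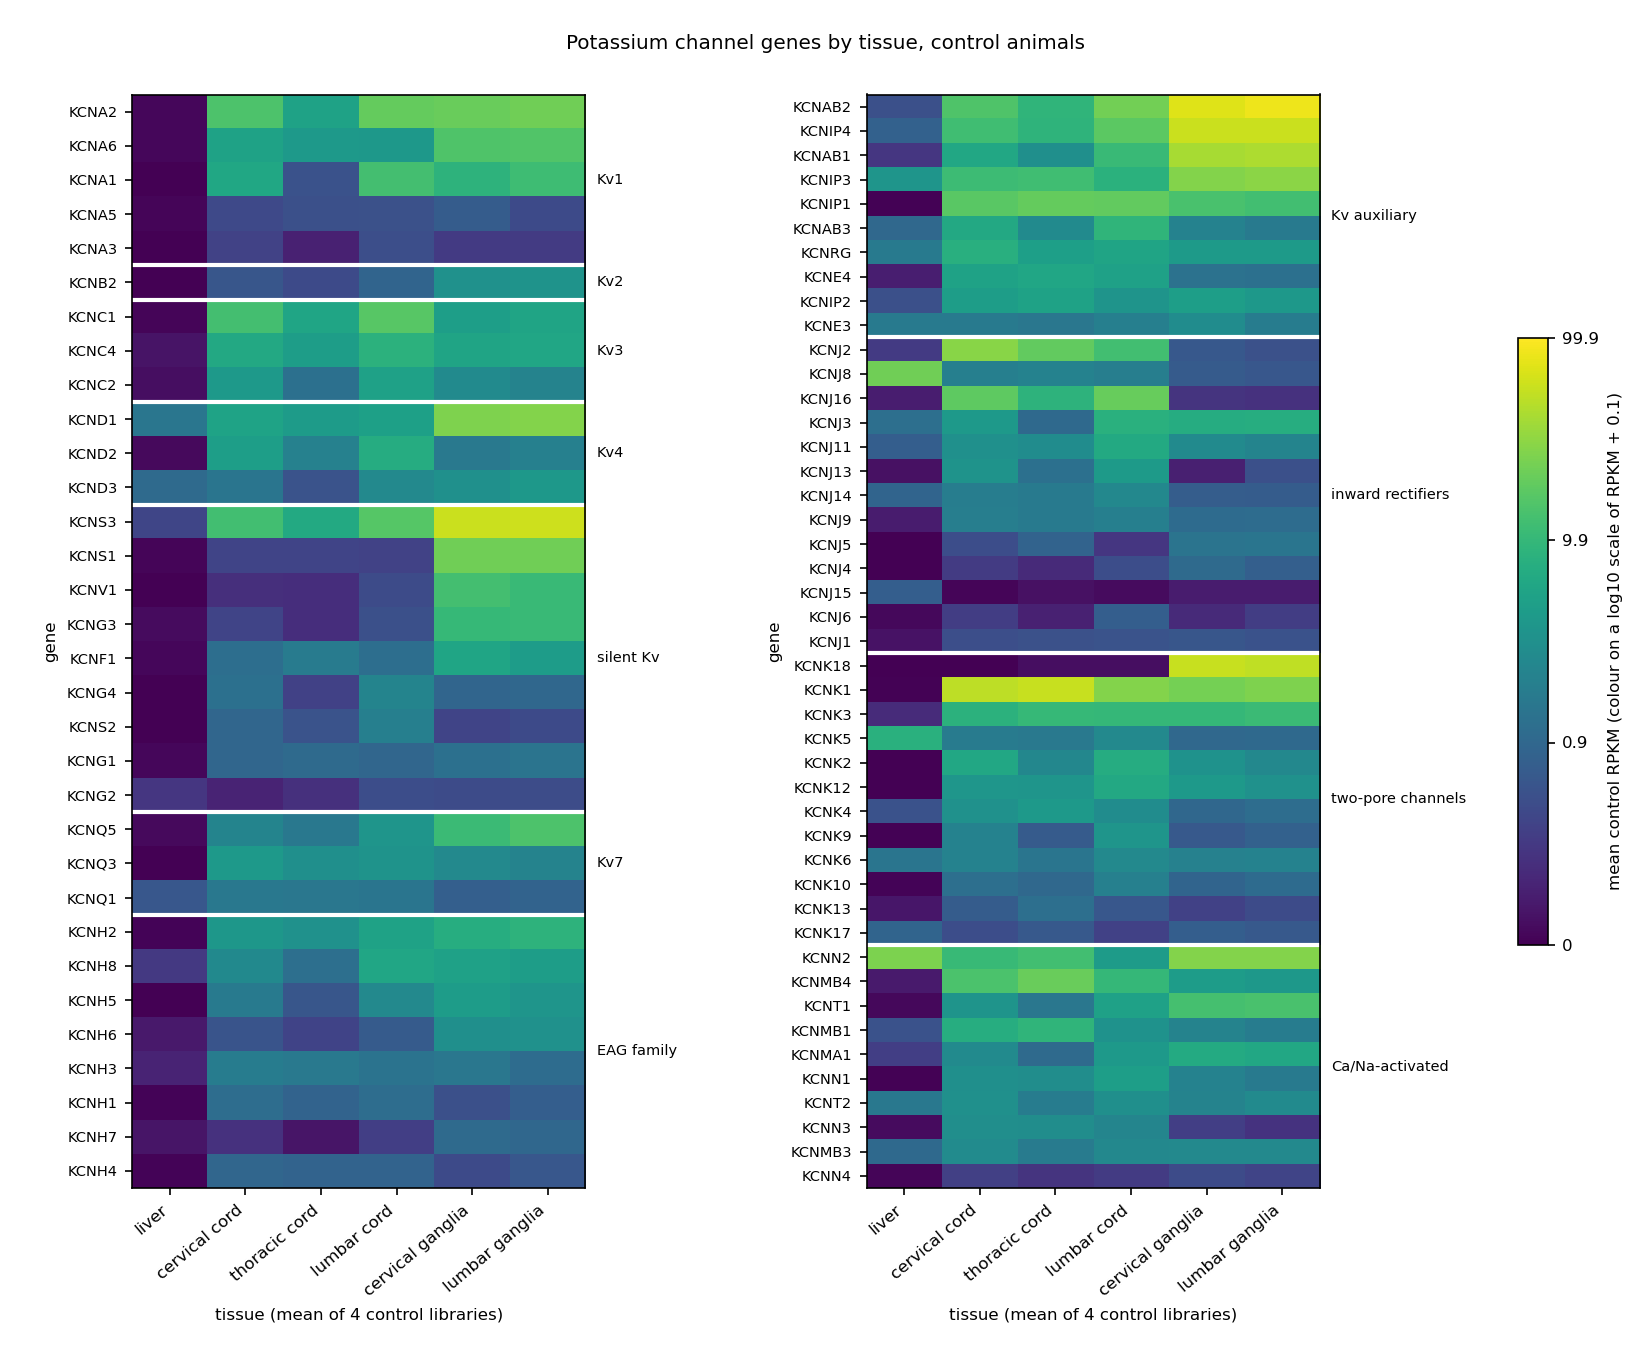
Mean control RPKM of 77 potassium channel genes (rows, grouped by role) in the 6 tissues (columns, 4 control libraries each), coloured on a log10 scale of RPKM + 0.1. KCNAB2, KCNIP4, KCNS3 and KCNK18 are bright in both ganglia, KCNJ2 and KCNJ16 are brighter in cord than in ganglia, and KCNN2, KCNJ8 and KCNK5 are the brightest cells of the liver column.

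Ganglia and cord of the control animals were compared gene by gene with edgeR, with the animal as a block. Of 79 members tested, 29 were higher in ganglia and 19 were higher in cord (Benjamini-Hochberg adjusted p under 0.05). Among all 14810 genes tested, 30.4% were higher in ganglia and 31.6% were lower there. The median log2 difference over the members was 0.10, beside -0.02 over all genes. Members that reached the level for membership in ganglia alone (such as KCNK18) or cord alone (such as KCNJ16) had their direction built into their choice. Without lumbar cord control replicate 1 and cervical cord control replicate 1, a choice made after seeing the data, 30 members were higher in ganglia and 27 were lower, beside 31.8% and 32% of all genes.

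The member with the widest gap was KCNK18, the pore subunit of the leak channel TRESK of sensory neurons. It reached the level for membership in ganglia only, so the direction of its difference was built into its choice. The 8 control ganglia held 30705 KCNK18 counts in all, and the 12 control cord libraries held 16. In RPKM its control level was 56.3 ± 13.7 (SD, n = 4) in cervical ganglia and 51.7 ± 13.9 in lumbar ganglia, which overlapped. It had no count in any control liver or cervical cord library, where 3 counts, taken as the limit of a count of 0, would be at most 0.0713 CPM in cervical cord. These limits cover counting error only.

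Of the 9 silent subunits, 6 were higher in ganglia and KCNS2 was higher in cord. KCNS1, which modifies Kv2 channels, had 22.1 ± 8.89 RPKM in cervical ganglia and 22.1 ± 3.90 in lumbar ganglia, against 0.292 to 0.317 as means of the 3 cord levels, a log2 difference of 6.18 ± 0.36 (SE, edgeR adjusted p = 7.27e-09). KCNV1 was 5.99 ± 0.55 and KCNG3 5.37 ± 0.24 higher in ganglia on the log2 scale (edgeR adjusted p = 5.48e-07 and 8.11e-10). KCNS3 was the silent subunit with the most RNA per length, at 58.3 ± 10.02 RPKM in lumbar ganglia and 15.99 ± 10.4 in lumbar cord.

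Among auxiliary subunits, 4 of 10 were higher in ganglia and 3 were lower. KCNAB2, the cytoplasmic beta subunit of Kv1 channels, had the highest level of any member in any tissue, 83.2 ± 5.83 RPKM in lumbar ganglia (74.6 to 87.4 over the 4 animals) and 71.7 ± 14.98 in cervical ganglia, against 23.02 ± 13.9 in lumbar cord. Next among the auxiliary subunits was KCNIP4, a calcium-binding partner of Kv4 channels, at 58.1 ± 10.96 RPKM in lumbar ganglia. KCNAB1, another Kv1 beta subunit, was 2.79 ± 0.36 higher in ganglia than in cord on the log2 scale.

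Of the pore subunits, 3 of 5 Kv1 and 5 of 8 EAG family members were higher in ganglia. KCNA2, a Kv1 subunit of myelinated axons, was at 22.1 ± 2.68 RPKM in lumbar ganglia and 19.3 ± 6.27 in lumbar cord, and these ranges overlapped. KCNH6, an EAG family subunit, was 3.34 ± 0.58 higher in ganglia (log2). KCND1, which carries fast inactivating Kv4 current, had 27.6 ± 2.90 RPKM in lumbar ganglia and 5.45 ± 0.937 in cervical cord. None of the 3 Kv3 members passed in either direction.

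Inward rectifiers ran the other way, with 7 of 12 higher in cord and 2 higher in ganglia. KCNJ16, which in glia pairs with the subunit encoded by KCNJ10, had 17.8 ± 14.5 RPKM in cervical cord and 0.165 ± 0.118 in lumbar ganglia, and the log2 difference of ganglia from cord was -6.40 ± 0.92 (edgeR adjusted p = 3.58e-05). KCNJ2, a strong inward rectifier, had 29.2 ± 7.34 RPKM in cervical cord and 0.573 ± 0.333 in cervical ganglia. Its log2 difference of ganglia from cord, over all regions, was -5.21 ± 0.49. KCNN3, a small-conductance calcium-activated channel, was lower in ganglia by a log2 difference of -3.67 ± 0.30. KCNJ13, whose exons overlap GIGYF2 on the other strand, varied from 0.0616 to 12.5 RPKM over lumbar cord controls, and its lower level in ganglia lost its call without lumbar cord control replicate 1 and cervical cord control replicate 1 (edgeR adjusted p = 0.094), in limma (0.336), and without control animal 1, 2 or 4 (edgeR adjusted p = 0.0904 to 0.0987). KCNE4, an auxiliary subunit, was lower in ganglia by -2.11 ± 0.52.

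KCNK1, the two-pore channel TWIK, was the member with the most RNA per length in cord, at 56.2 ± 8.78 RPKM in thoracic cord, 50.4 ± 18.2 in cervical cord and 28.01 ± 18.9 in lumbar cord, and neighbouring tissues in this order overlapped down to cervical ganglia (23.7 ± 8.49). Both of the Kv1 subunits of axons named here were lowest in thoracic cord among the cord levels. KCNA1 had 12.7 ± 4.99 RPKM in lumbar cord, 6.05 ± 3.92 in cervical cord and 0.474 ± 0.412 in thoracic cord, and KCNA2 had 19.3 ± 6.27, 14.6 ± 4.82 and 5.27 ± 1.398. For both, the thoracic range did not overlap with that of cervical cord. The mitochondrial share of thoracic cord controls was 10.5% to 37.3%, and without control replicate 4, the library over 30%, KCNA1 was at 0.597 ± 0.404 and KCNA2 at 5.13 ± 1.68 RPKM (n = 3). KCNMB4, a beta subunit of large-conductance calcium-activated channels in neurons, was highest in thoracic cord (20.5 ± 1.97 RPKM).

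**Figure D2:**
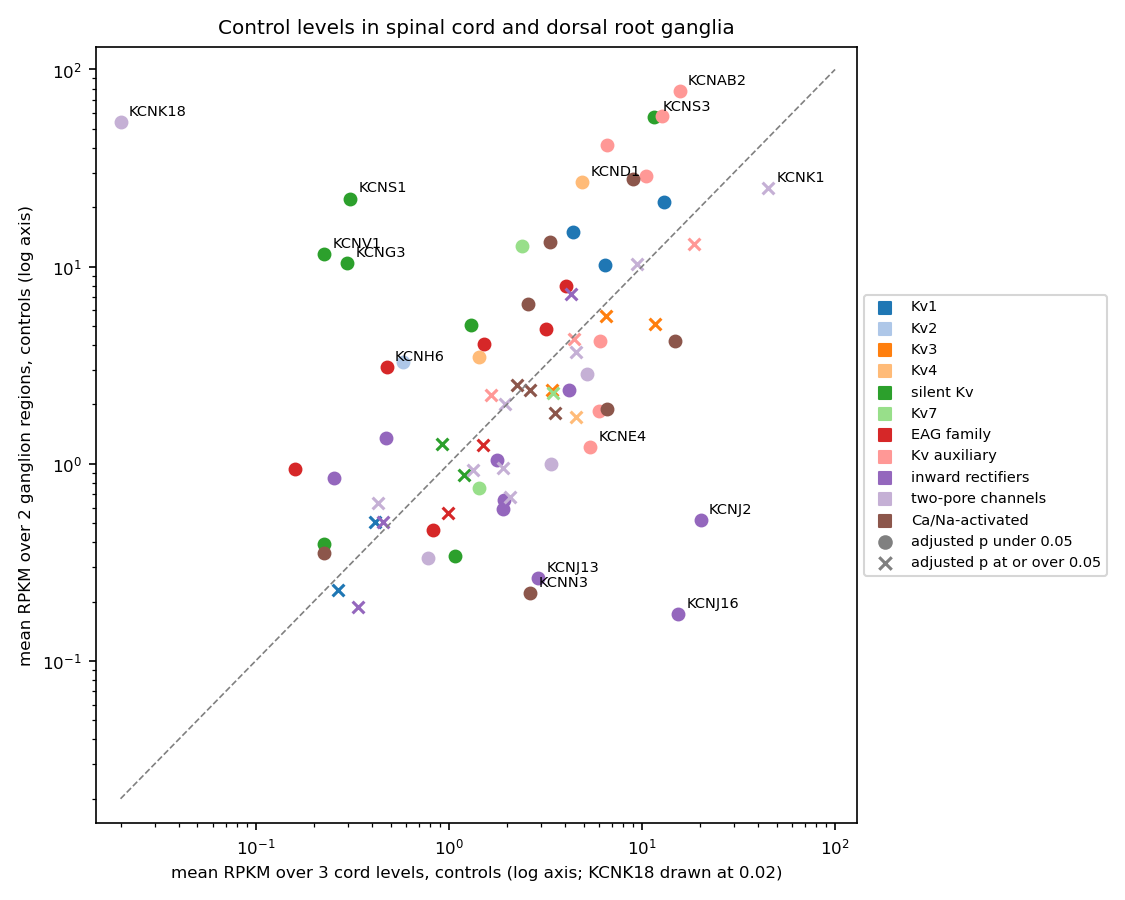
Each point is 1 potassium channel gene, with its mean control RPKM over the 3 cord levels on the x axis and over the 2 ganglion regions on the y axis (both log axes), coloured by role; circles passed edgeR at an adjusted p under 0.05 and crosses did not. KCNK18 (drawn at 0.02 on the x axis), KCNS1, KCNV1 and KCNG3 lie far above the dashed line of equal levels, and KCNJ2 and KCNJ16 far below it.

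Liver held little of the family. No count of 12 members was found in any of the 4 control livers, among them KCNQ3, KCNA1 and KCNK12, and 3 counts would be at most 0.0590 CPM in a control liver. KCNK1 had 2 counts in 1 of the 4 livers. Against nervous tissue, 61 of 80 members were lower in liver and 6 were higher, where 42.2% and 34.3% of 15008 genes were lower and higher. The median log2 difference over the members was -4.34, beside -0.18 over all genes. Of the 80 members, 24 reached the level for membership in all 6 tissues, and a gene could enter through nervous tissue alone. Part of the lower liver level was thus built into the choice of members. Without lumbar and cervical cord control replicate 1, 64 were lower and 6 higher, beside 42.5% and 35.6% of all genes.

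The 6 members higher in liver after TMM scaling were KCNJ8, KCNJ15, KCNK5, KCNN2, KCNK17 and KCNK6. KCNJ8, the pore of ATP-sensitive channels of blood vessels, had 22.1 ± 10.8 RPKM in liver (11.01 to 35.98) and 2.05 ± 0.287 in thoracic cord. Its log2 difference of liver from the mean over all nervous tissues, after TMM scaling, was 5.32 ± 0.19. KCNK5, an alkaline-activated leak channel, ranged from 2.36 to 20.6 RPKM over the 4 livers and overlapped with lumbar cord. KCNN2, a small-conductance calcium-activated channel, was 25.7 ± 7.69 RPKM in liver and 27.97 ± 4.56 in cervical ganglia, and these ranges overlapped. KCNJ15 reached the level for membership in liver only, so its difference was built into its choice. Scaling to total counts in place of TMM moved the median of all genes by -1.12 in this contrast, gave 4 members higher and 69 lower, and turned KCNK6 to -0.51. The RPKM values are also scaled to total counts. On that scale KCNK6 was lowest in liver, at a control mean of 1.35, against 1.37 in thoracic cord and 2.47 in lumbar cord.

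Lumbar was tested against cervical in cord and in ganglia, and thoracic cord entered no such test. Lumbar against cervical cord, over control and treated animals with the animal as a block, gave 0 of 78 members in edgeR. Of all genes, 0.0347% were higher and 0.0208% lower in edgeR. In limma 4 members passed, 1 higher and 3 lower in lumbar cord, beside 1.05% and 2.31% of all genes. Among them were KCNH8 (1.14 ± 0.29, higher in lumbar cord), KCNMB1 (-1.02 ± 0.21) and KCNJ2 (-1.64 ± 0.44), with limma adjusted p from 0.0163 to 0.0406. All 3 went the way of the 2 lumbar libraries with almost no MOG, which held 65.2 and 90.2 CPM of KCNH8 against 13.3 to 37.4 in the other 6, 3.40 and 4.74 of KCNMB1 against 6.36 to 16.1, and 1.55 and 1.94 of KCNJ2 against 6.66 to 40.8. Without these 2 libraries, a limma fit added after seeing the data, KCNMB1 still passed (-0.68 ± 0.16, limma adjusted p = 0.0364), while KCNH8 (0.74 ± 0.24, 0.117) and KCNJ2 (-0.77 ± 0.28, 0.151) did not. That fit called 3 members, 2 higher (KCNT1, 0.67 ± 0.17, among them) and 1 lower, beside 0.338% and 1.03% of all genes, and edgeR without the 2 libraries called 0. Lumbar against cervical ganglia gave 0 of 78 in limma and 0 in edgeR on the control libraries (of all genes, 0.0988% were higher and 0.169% lower in limma).

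The 2 lumbar cord libraries with almost no MOG also differed in channel genes. In both, 49 of the 80 members were below the range of the other 6 lumbar cord libraries and 6 were above it. KCNK1 had 0.258 and 0.0435 CPM there, against 58.0 to 87.8 in the others, and KCNK3 had 0.387 and 0.304 against 49.8 to 119. KCNK12, a halothane-inhibited two-pore channel, had 74.0 and 75.9 CPM against 12.2 to 43.1.

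Treatment was compared with control in each tissue by edgeR's quasi-likelihood test with sex as a covariate, and levels in these comparisons are CPM after TMM scaling, called scaled CPM. In lumbar ganglia, 8 of 78 members tested were lower in treated animals and 0 were higher, at adjusted p values under 0.05. Over all 14267 genes, 3.65% were lower and 0.638% were higher. Among the 8, KCNH2, KCND1 and KCNC1 are pore subunits of different Kv classes, KCNAB2 and KCNIP3 are auxiliary subunits, KCNK3 is a two-pore channel and KCNN1 is calcium-activated. The median log2 change over the 78 members was -0.08, beside 0.05 over all genes.

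KCNH2, the pore subunit also called hERG whose current repolarises excitable cells, had 58.9, 53.8, 67.0 and 58.3 scaled CPM in the 4 controls and 17.4, 14.8, 24.6 and 28.3 in the 4 treated libraries. Every treated library lay under the lowest control. The mean went from 59.5 ± 5.498 to 21.3 ± 6.26 (SD, n = 4 each), a log2 change of -1.53 ± 0.15 (SE, edgeR adjusted p = 0.00826). KCNH2 was also the member whose call did not depend on a single library: it passed in each of the 8 fits that left out 1 library, with edgeR adjusted p up to 0.0471.

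KCND1, a Kv4 pore subunit, had 126 to 162 scaled CPM in controls and 64.4 to 98.1 in treated animals, with no overlap. Its log2 change was -0.85 ± 0.13 (edgeR adjusted p = 0.0172). KCNC1, the Kv3 pore subunit of fast-firing neurons, had 21.3 to 24.6 and 10.2 to 16.4, a log2 change of -0.75 ± 0.16 (edgeR adjusted p = 0.0421).

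KCNAB2, the Kv1 beta subunit that led the family in level, had 733, 823, 824 and 800 scaled CPM in controls and 248, 443, 489 and 460 in treated animals. Treated replicate 1 was the lowest, and the other 3 were also under every control. The log2 change was -0.97 ± 0.19 (edgeR adjusted p = 0.0335). Its exons overlap those of NPHP4 on the other strand over 142 bases, and the counting did not use strand. KCNIP3, a calcium sensor that binds Kv4 channels, had 36.8 to 44.5 in controls and 17.4 to 23.98 in treated animals, and its log2 change was -0.90 ± 0.13 (edgeR adjusted p = 0.0172).

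KCNK3, the acid-sensitive leak channel TASK, had 66.9 to 85.1 scaled CPM in controls and 25.8 to 52.3 in treated animals. These groups did not overlap, with a log2 change of -1.02 ± 0.20 (edgeR adjusted p = 0.0352). KCNN1, a small-conductance calcium-activated channel, was low, at 3.25 to 6.94 in controls and 0.989 to 1.95 in treated animals. Its log2 change of -1.66 ± 0.34 (edgeR adjusted p = 0.0382) had the widest error of the 8, and it passed in none of the 8 fits that left out 1 library.

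**Figure D3:**
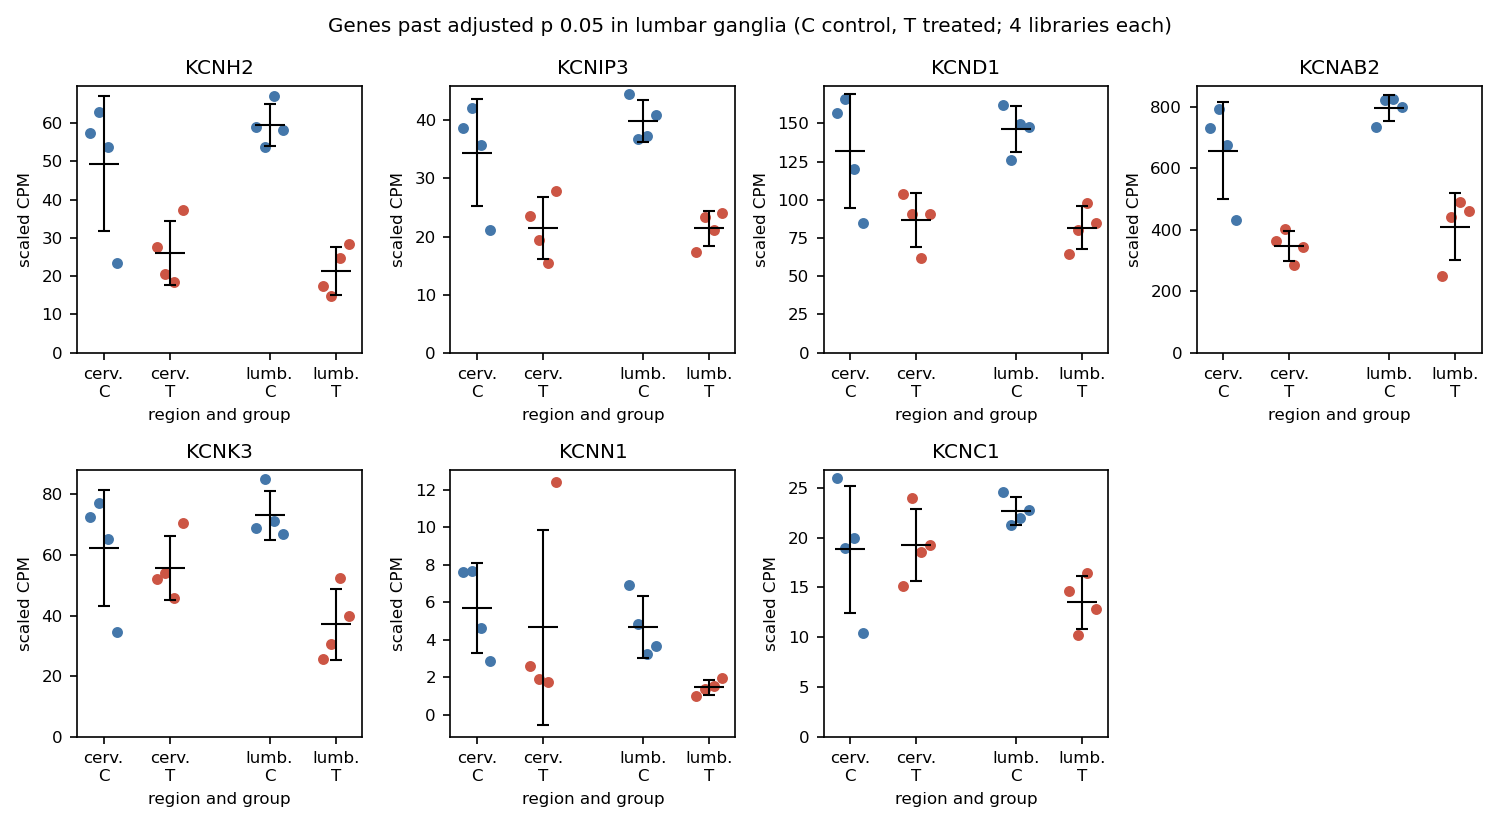
Scaled CPM (y axes from 0, except KCNN1, whose SD bar reaches below it) of 7 genes past an adjusted p of 0.05 in lumbar ganglia, in cervical and lumbar ganglia of control (C, blue) and treated (T, red) animals; points are libraries, and bars are the mean and SD of 4. In lumbar ganglia every treated point is under every control point, and in cervical ganglia this holds for KCNAB2 among the 7.

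Channel genes whose control and treated lumbar ganglia did not overlap numbered 11, all lower in treated animals (9.35% of all genes were lower without overlap and 7.38% were higher). The 3 beyond the 8 were KCNS3 (92.3 ± 18.3 to 57.2 ± 8.34 scaled CPM, edgeR adjusted p = 0.0637), KCNJ9, a G-protein-gated inward rectifier (7.99 ± 1.04 to 4.82 ± 0.581, edgeR adjusted p = 0.0506) and KCNIP1 (27.04 ± 2.62 to 21.5 ± 1.75, edgeR adjusted p = 0.122). KCNJ9 shares exon sequence with IGSF8 on the other strand. At an unadjusted p under 0.05, 16 members were lower and 2, KCNK2 and KCNK17, were higher, beside 12.5% and 10.1% of all genes.

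Other members with known roles in sensory neurons did not pass in lumbar ganglia. KCNK18 had 84.5 ± 22.3 scaled CPM in controls and 126 ± 98.6 in treated animals (log2 change 0.55 ± 0.54, edgeR adjusted p = 0.585), with the treated group far more spread than the controls. KCNS1 had 140 ± 28.01 and 108 ± 39.4, KCNA2 25.4 ± 3.71 and 23.9 ± 2.69, and KCNMA1, the pore of large-conductance calcium-activated channels, 28.6 ± 8.88 and 27.8 ± 9.57. KCNA1 had 18.8 ± 7.12 and 11.6 ± 1.97 (log2 change -0.62 ± 0.24, edgeR adjusted p = 0.178), and KCNK2, a mechanically gated leak channel, 11.2 ± 1.36 and 19.5 ± 9.70.

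The summed level of 10 genes of neurons in general was lower in the treated lumbar ganglia as well. Their sum was 26783 to 36785 CPM in controls and 14774 to 19178 in treated animals, without overlap. Of the 10, 4 were called lower (UCHL1, NEFM, NEFL and SNAP25) and 0 higher, and the others were not called. Among all genes, 3.65% were called lower and 0.638% higher. SNAP25, a protein of synaptic vesicle release, had a log2 change of -1.21 ± 0.15 and NEFL, a neurofilament, -1.35 ± 0.19 (edgeR adjusted p = 0.0154 and 0.0172). The sum over 9 sensory neuron genes overlapped, at 3394 to 3924 CPM in controls and 1965 to 4898 in treated animals. Of these 9, 0 were called and 2 were lower at an unadjusted p under 0.05, beside 12.5% of all genes. The sum over 4 satellite glia genes was 1224 to 1350 and 1298 to 2104 CPM. The part of these shifts in the channel changes was not tested.

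Of 30 genes listed as partners of potassium channels, all measured here, 7 were lower in treated lumbar ganglia and 0 were higher, where 3.65% and 0.638% of all genes were. At an unadjusted p under 0.05, 11 were lower and 3 higher (12.5% and 10.1% of all genes), and the groups did not overlap for 11 lower and 2 higher (9.35% and 7.38%). CALM3, which encodes the calcium sensor calmodulin bound by Kv7 and small-conductance channels, had a log2 change of -0.87 ± 0.12 (edgeR adjusted p = 0.0170). LGI3 fell by 1.02 on the log2 scale and VAPB by 0.49. The median over the 30 was -0.26, beside 0.05 over all genes. In cervical ganglia 0 of the 30 passed, 8 were lower and 0 higher at an unadjusted p under 0.05, and their median was -0.38 beside 0.05.

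The number of lumbar calls depended on single libraries. Without control replicate 1, 2 or 3, KCNH2 alone passed, without treated replicate 4 KCNH2 and KCNIP3 passed, and without treated replicate 3 or control replicate 4 there were 4 and 5, without treated replicate 2 there were 6, KCNK2 among them as higher, and without treated replicate 1 there were 8. Over all genes these 8 fits called 0.125% (without control replicate 3) to 3.96% (without treated replicate 1) lower and 0% to 0.711% higher. With the replicate number as a block, KCNAB2, KCND1, KCNH2 and KCNIP3 passed, beside 1.38% of genes lower and 0.0631% higher. DESeq2 called 13 members, all lower, beside 8.36% of genes lower and 3.75% higher. With total counts in place of TMM, which moved the median of all genes by 0.19, 7 members were lower and 0 higher, while the calls over all genes went from 91 higher and 521 lower to 1475 higher and 368 lower.

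**Figure D4:**
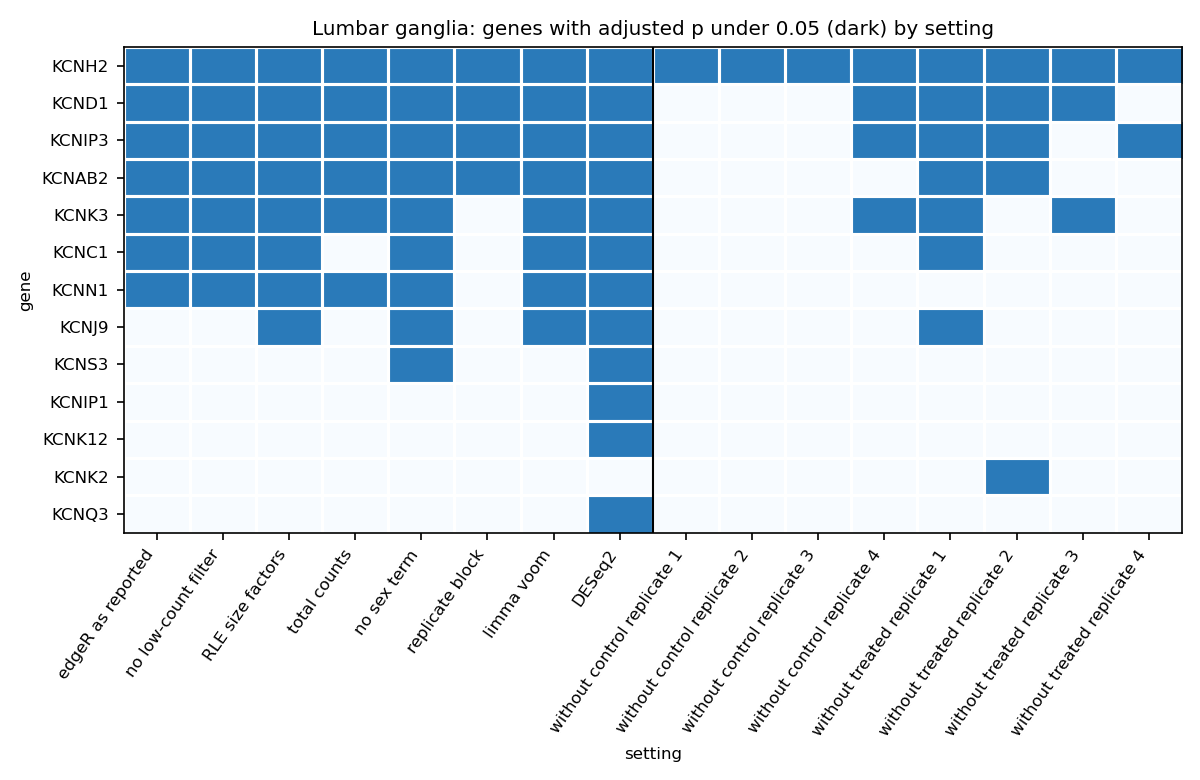
Genes of the family (rows) with an adjusted p under 0.05 in lumbar ganglia (dark cells) under each setting (columns): with all 8 libraries left of the black line, and without 1 library right of it. KCNH2 is dark in all 16 columns, KCND1 and KCNIP3 in 12, and KCNK2 in 1, where it was higher in treated animals.

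In cervical ganglia, 0 of 78 members passed in edgeR and in limma, and DESeq2 called 4 lower (KCNAB2, KCNH5 and KCNQ3 among them), beside 1.43% of genes lower and 0.141% higher. No gene of 14173 was called by edgeR in either direction (0%). At an unadjusted p under 0.05, 9 members were lower and 1, KCNJ13, was higher, beside 5.07% and 2.28% of all genes. The groups did not overlap for 5 members, all lower, among them KCNAB2, KCNH5 and KCNQ3 (3.28% of all genes were lower without overlap and 2.2% were higher).

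KCNQ3, a Kv7 pore subunit, had 6.90, 8.40, 6.86 and 5.25 scaled CPM in controls and 2.69, 2.93, 3.25 and 3.89 in treated animals, a log2 change of -1.10 ± 0.27 (edgeR adjusted p = 0.359). KCNAB2 went from 657 ± 159 to 347 ± 49.1 (log2 change -0.91 ± 0.19, edgeR adjusted p = 0.348). Without treated replicate 4, the library with 23.01% mitochondrial counts, 0 of 79 members passed, with KCNAB2 at -0.996 ± 0.19 and KCNQ3 at -1.23 ± 0.24 (edgeR adjusted p = 0.112 and 0.113). Control replicate 4 was the lowest control for KCNQ3 and KCNAB2. That library also had the lowest neuron sum of the controls, 14017 CPM against 23539 to 30514, and the neuron sums of the groups overlapped (11124 to 19092 CPM in treated animals).

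**Figure D5:**
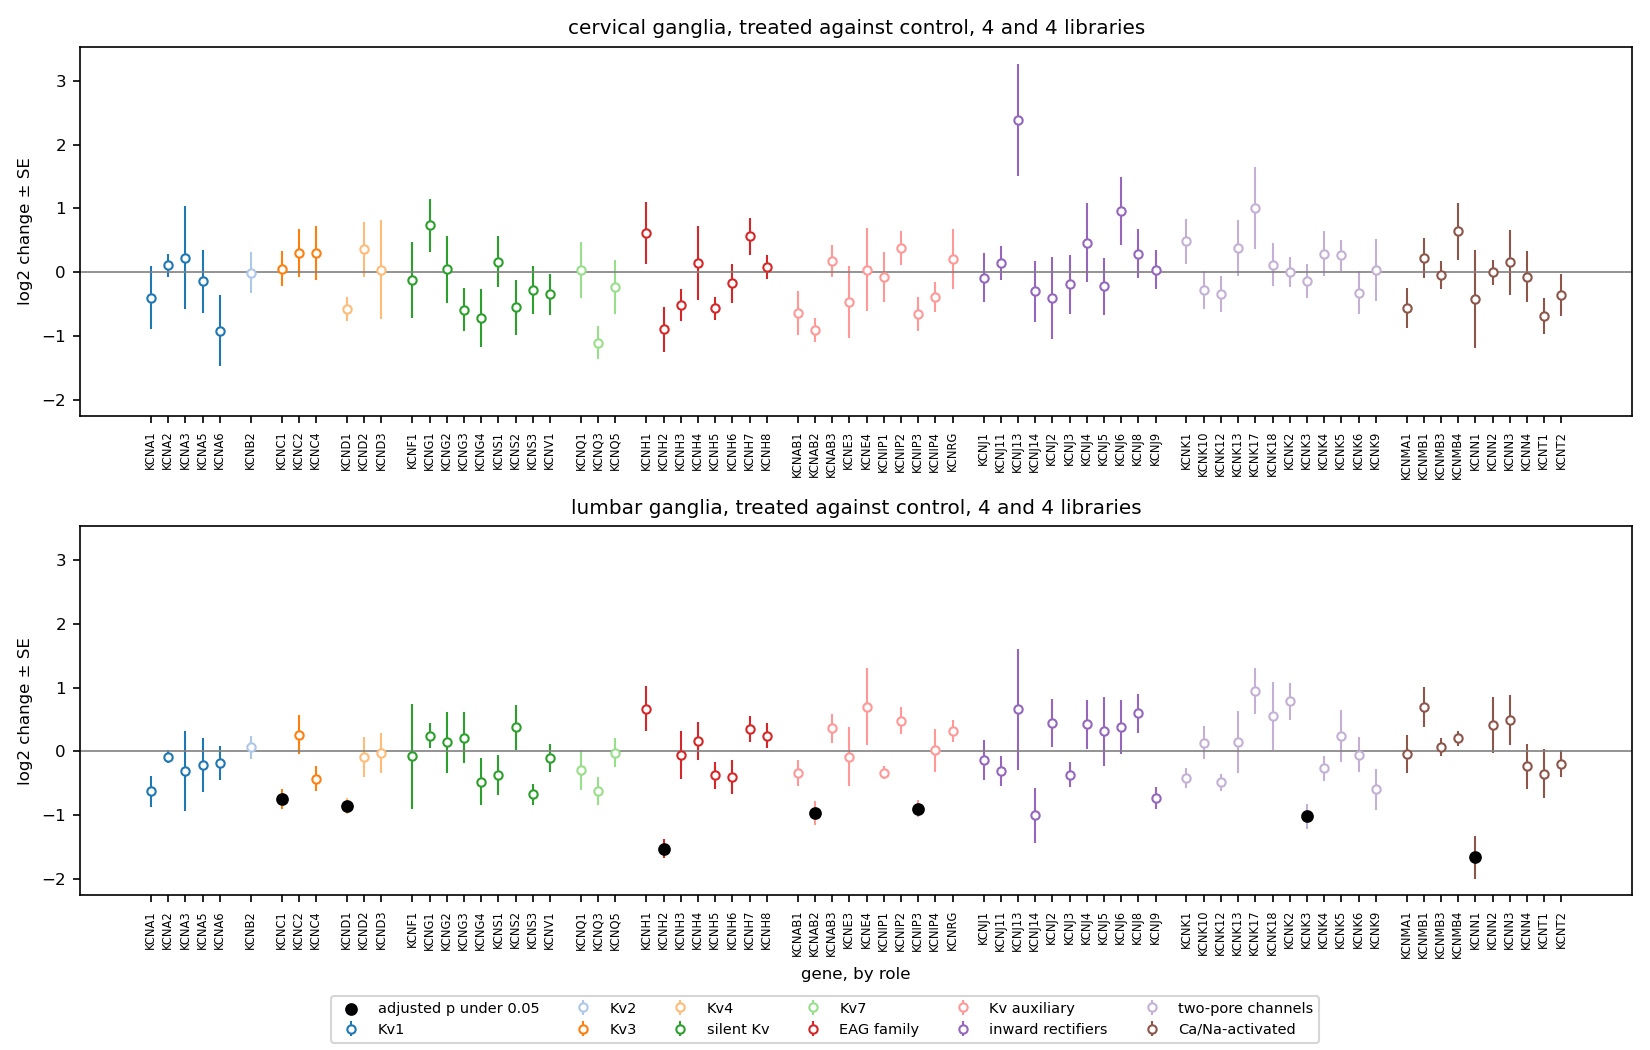
Log2 change of treated against control (y axis, points with SE bars from edgeR) for potassium channel genes tested, ordered by role, in cervical ganglia (top) and lumbar ganglia (bottom), 4 libraries per group; black points passed an adjusted p of 0.05. The 7 black points are all in lumbar ganglia and all below 0, from -0.75 for KCNC1 to -1.66 for KCNN1.

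The 2 ganglion regions were also fitted together in limma over 16 libraries, correcting for sex and region and treating libraries of an animal as a random block. There, 0 of 79 members passed, while 0.929% of 14535 genes were lower and 0.0138% higher. Without the animal block, edgeR called 7 members lower and 0 higher, beside 4.99% and 1.63% of all genes, and DESeq2 called 8 lower and 0 higher, beside 7.7% and 4.46%. At an unadjusted p under 0.05, 9 members were lower and 0 higher (8% and 3.45% of all genes), and the median over the members was -0.14 beside 0.05 over all genes. Among the smallest p values were those of KCNAB2 (-0.96 ± 0.23, limma adjusted p = 0.0660) and KCNQ3 (-0.87 ± 0.24, 0.109), followed by KCNH2 (-1.19 ± 0.37, 0.158). KCNAB2 had 437 to 813 scaled CPM over the 8 control libraries (median 763) and 245 to 483 over the 8 treated ones (median 388), and these ranges overlapped. No member was free of overlap over the 16 libraries, where 1.24% of all genes were lower without overlap and 0.296% higher.

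In this joint fit the animal of cervical ganglia treated replicate 4 weighed most. Without it, 9 of 80 members were lower and 0 higher at a limma adjusted p under 0.05, and of all genes 5.54% were lower and 1.03% higher. The 9 included KCNAB2, KCND1, KCNH2, KCNIP3, KCNK12, KCNN1, KCNQ3 and KCNS3. Without control animal 4, KCNAB2 and KCNH2 passed, beside 1.07% of genes lower and 0% higher. Of the other members in a fixed textbook set, KCNT1, a sodium-activated channel, had a log2 change of -0.61 ± 0.35 (limma adjusted p = 0.558). KCNMA1 was at -0.36 ± 0.30 (0.693), KCNC1 at -0.32 ± 0.39 (0.808), KCNJ8 at 0.47 ± 0.41 (0.714) and KCNK2 at 0.34 ± 0.30 (0.724). KCNA2 (-0.02 ± 0.16), KCNS1 (-0.05 ± 0.43), KCNK18 (0.11 ± 0.38) and KCNJ16 (-0.58 ± 0.90) had no direction that held when animals were left out.

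The calls in lumbar but not cervical ganglia do not show that the regions differ. The test of that difference, treatment by region, gave 0 of 79 members and 0% of 14535 genes in limma. With edgeR without the animal block, 0 members passed. The lowest p values belonged to KCNC1 (-1.05 ± 0.29, lumbar minus cervical log2 change), KCNK1 (-0.98 ± 0.28) and KCNK3 (-0.85 ± 0.27), all with a limma adjusted p of 1.00.

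The treatment effect in ganglia was also compared with that in cord. None of 79 members passed in limma with all libraries, where 0.186% of 15072 genes had a lower and 0.113% a higher effect in ganglia. In edgeR without the animal block 0 passed. KCNIP3 (-0.88 ± 0.21, limma adjusted p = 0.0672) and KCNH2 (-1.47 ± 0.39, 0.103) came closest. Without the 2 lumbar cord libraries with almost no MOG, both passed, KCNIP3 at -0.91 ± 0.20 (limma adjusted p = 0.0205) and KCNH2 at -1.36 ± 0.32 (0.0321), beside 0.607% of genes lower and 0.198% higher. Without cervical cord control replicate 1 as well, they passed at 0.0256 and 0.0338.

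In spinal cord no member passed in any of the 3 levels or in the counts summed per animal, and no gene of all those tested was called by edgeR (0% in each). DESeq2 and limma also called 0 members in each of these 4 fits. At an unadjusted p under 0.05 in edgeR, 3 of 78 members were higher and 0 lower in cervical cord (4.64% and 4.88% of all genes), and 1 of 74 was higher and 1 lower in thoracic cord (0.848% and 1.48%). In lumbar cord 1 of 78 was higher and 0 lower (0.724% and 1.02%), and in the summed counts 3 of 78 were higher and 1 lower (1.83% and 1.66%). Leaving out the 2 lumbar libraries with almost no MOG left 0 called in lumbar cord and in the summed counts.

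In cervical cord the 3 members with the smallest p were two-pore channels, each with a higher treated mean. KCNK4, the mechanically gated channel TRAAK, had 8.47 to 12.5 scaled CPM in controls and 14.7 to 22.2 in treated animals, a log2 change of 0.69 ± 0.18 (edgeR adjusted p = 0.504). KCNK10 had 2.16 to 5.44 and 6.20 to 12.5, and its log2 change was 1.06 ± 0.38. KCNK13, a channel of microglia, had 1.05 to 1.45 and 1.43 to 4.05 (0.96 ± 0.37), which overlapped. Groups did not overlap for KCNK4, KCNK10 and KCNMB1, a beta subunit of large-conductance channels, all 3 higher in treated animals, where 3.16% of all genes were higher without overlap and 2.91% lower. Control replicate 1, low in neuron genes, was the lowest control for KCNK4 and KCNK10. Without it the log2 change was 0.61 ± 0.19 for KCNK4, 0.77 ± 0.34 for KCNK10 and 1.03 ± 0.42 for KCNK13, each with an edgeR adjusted p of 0.509, and KCNK10 was no longer at an unadjusted p under 0.05 (0.0538). Of 6 genes of microglia and macrophages, 5 had a positive change in cervical cord, with a median of 0.28 and 0 called, and their sums overlapped (305 to 471 CPM in controls and 346 to 500.9 in treated animals).

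In the thoracic cord KCNJ5, a G-protein-gated inward rectifier, had 0.724 to 2.13 scaled CPM in controls and 0.236 to 0.667 in treated animals (log2 change -1.66 ± 0.52, edgeR adjusted p = 0.981). KCNN2 had 33.7 to 44.4 and 44.5 to 55.01 (0.37 ± 0.16), and KCNK4 10.8 to 16.8 and 16.4 to 21.3 (0.39 ± 0.21). KCNJ5 and KCNN2 did not overlap between groups, at a background of 0.855% higher and 1.17% lower over all genes. Without the 3 libraries with over 30% mitochondrial counts, which left 3 controls and 2 treated in a fit added after seeing the data, 0 members passed and the log2 changes were -1.97 ± 0.54 for KCNJ5, 0.48 ± 0.22 for KCNN2 and 0.34 ± 0.27 for KCNK4 (edgeR adjusted p = 1.00), with KCNJ5 but not KCNN2 (0.0593) at an unadjusted p under 0.05. In lumbar cord KCNK13 (1.01 ± 0.34), KCNMB1 (0.85 ± 0.39) and KCNAB3 (-0.62 ± 0.31) had the smallest p values, with edgeR adjusted p of 1.00, and no member was free of overlap (0.738% of genes higher, 0.884% lower). Without the 2 libraries with almost no MOG these changes were 1.14 ± 0.32, 0.91 ± 0.23 and -0.63 ± 0.26. In that fit KCNAB2 (-1.15 ± 0.25) and KCNN2 (1.18 ± 0.28) had smaller p values than these 3. Their unadjusted edgeR p was 0.00385 and 0.00569, and the edgeR adjusted p was 0.694 for both. The 6 genes of microglia and macrophages all had a positive change in lumbar cord (median 0.74, 0 called, 2 at an unadjusted p under 0.05), and their sums overlapped (222 to 295 CPM in controls and 267 to 477 in treated animals).

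In the summed cord counts KCNN2 had 24.3 to 29.5 scaled CPM in the 4 controls and 25.6, 46.4, 45.4 and 49.01 in the 4 treated animals (log2 change 0.61 ± 0.20). KCNK13 had 1.44 to 1.66 and 1.93 to 4.00 (0.81 ± 0.27), and KCNJ5 0.632 to 1.33 and 0.282 to 0.555 (-1.16 ± 0.37), each with an edgeR adjusted p of 0.858. KCNK13 and KCNJ5 did not overlap between groups, nor did KCNMB1 (11.8 to 13.7 and 14.8 to 18.8), at 1.73% higher and 1.43% lower over all genes. Without the 2 lumbar libraries and cervical control replicate 1, the log2 change was 0.50 ± 0.20 for KCNN2, 0.72 ± 0.33 for KCNK13 and -1.41 ± 0.41 for KCNJ5 (edgeR adjusted p = 0.859), and KCNK13 was no longer at an unadjusted p under 0.05 (0.0589). KCNAB2, called lower in lumbar ganglia, was at -0.66 ± 0.22 in that fit (edgeR unadjusted p = 0.0156, adjusted p = 0.859). The 6 genes of microglia and macrophages again all had a positive change (median 0.52, 0 called, 3 at an unadjusted p under 0.05), and their part in the KCNK13 levels of the cord was not tested.

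In liver 34 members had enough counts to be tested and 0 passed in edgeR, DESeq2 or limma (0% of 12609 genes in edgeR), with 1 lower and 2 higher at an unadjusted p under 0.05 (4.69% and 3.63% of all genes). KCNK3 had 0.614 to 1.28 scaled CPM in controls and 1.18 to 2.62 in treated animals, a log2 change of 0.98 ± 0.28 (edgeR adjusted p = 0.398). KCNAB3, a Kv beta subunit, had 2.78 to 3.64 and 3.99 to 7.83 (0.67 ± 0.25), and KCNS3 0.375 to 0.753 and 0.225 to 0.315 (-0.80 ± 0.34). KCNAB3 was the member higher without overlap and KCNS3 the member lower without overlap, beside 2.05% and 3.09% of all genes. KCNJ8, second to KCNN2 in control liver RPKM, had 97.0 ± 51.2 scaled CPM in controls and 64.0 ± 19.9 in treated animals (log2 change -0.59 ± 0.39, edgeR adjusted p = 0.757).

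By coordinates of the deposited table (build Macaca_fascicularis_5.0), KCNIP3 and KCNK3, both called in lumbar ganglia, lie on chromosome 13. KCNH2 spans chromosome 3 from 183629888 to 183665130 with 17 counted exons. KCNAB2 spans chromosome 1 from 222290329 to 222399393, KCND1 chromosome X from 47493318 to 47505539 and KCNC1 chromosome 14 from 49941781 to 49990302. KCNIP3 starts at 673049 and ends at 764177, KCNK3 runs from 84152894 to 84196418, and KCNN1 lies on chromosome 19 from 18338541 to 18373235. Counts were taken over all exons of a gene name, untranslated exons included where the annotation has them, so isoforms were not separated.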

How the data were processed

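RNA from 48 tissue samples stored in RNAlater was made into stranded mRNA libraries and read as 50-base pairs on a HiSeq 2500, per the labels' protocols. The authors aligned reads with STAR 2.5.3a to Macaca_fascicularis_5.0 with Ensembl release 94, per the submitters' processing notes. The deposited table holds whole-number counts per gene name from featureCounts 1.4.6-p1, which counted each mate as a read and used no strand, per the file headers. Its length column, the counted exon bases deposited beside the counts, gave RPKM.

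Members and gene lists were chosen with earlier results of these data known. Treated and control libraries, which come from separate animals, were compared with edgeR 4.0.16 in R 4.3.3 (quasi-likelihood test, TMM scaling, filterByExpr, sex as covariate, Benjamini-Hochberg adjustment over all genes tested). Fits over several libraries of an animal used limma 3.58.1 voom with animal as a random block, or edgeR with animal as a fixed block for tissue contrasts in controls and for cord levels. Named genes were those past an adjusted p of 0.05 and the 3 smallest p values of each treatment fit. Up to 4 members per role were named by control RPKM, as was a fixed set of textbook members. The 3 family genes on either side of the level for membership and the 5 largest differences each way in tissue contrasts were also named. Up to 4 partner genes per fit were added, and others were named after their values were seen. Some genes are counted in the totals but not reported here by name. Fits were tested on simulated data. Alternatives were DESeq2 1.42.0, limma, RLE and total-count scaling, no filter, no sex term, the replicate block, and leaving out each library or animal. In lumbar cord, control and treated libraries of the same number deviated together (correlations 0.92, 0.19, 0.79 and 0.51), and the block also called 0 members there. No library pair was identical. Depth per library was 35453786 to 53480762 counts.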

Additional observations from a re-analysis of the deposited data

Results flagged for a closer look

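Among 52 groups of 4 values of named genes, 3 held a library far from the other 3, and chance alone gives such a gap in about 1 of 20 groups. KCNK10 was 12.5 scaled CPM in cervical cord treated replicate 2, and 6.20 to 6.75 in the other treated cervical cords. KCNMB1 was 4.68 scaled CPM in lumbar cord treated replicate 1, one of the libraries with almost no MOG, and 13.4 to 14.4 in the other treated lumbar cords. KCNN2 was 25.6 scaled CPM in the summed cord counts of treated replicate 1, which include that lumbar library, and 45.4 to 49.01 in the other treated animals.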

How the results depend on the processing

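Of the values of single genes under the alternatives, 788 kept their direction and side of the threshold, 54 lost their call, 19 gained one and 14 changed sign. The 788 include values of genes that had no call to begin with and stayed without one. DESeq2 called 4 members in cervical ganglia and 13 in lumbar ganglia. With the replicate number as a block, lumbar ganglia gave 4, with KCNK3 (adjusted p = 0.0603), KCNN1 (0.0850) and KCNC1 (0.0600) among those not passing; the libraries there share only a number. Leaving out 1 library gave 1 to 8 in lumbar ganglia. In both ganglia together, edgeR without the animal block gave 7, DESeq2 without it 8, no sex term 1, and leaving out 1 animal 0 to 9. The effect in ganglia against cord gave 2 members without the lumbar pair almost free of MOG, and 2 also without cervical control replicate 1. Lumbar against cervical cord gave 4 in limma, 3 in limma without the lumbar pair, and 0 to 2 when 1 animal was left out (2 without treated animal 2, KCNMB1 among them). Sign changes in both ganglia were those of KCNA2 (0.0064 summed per animal, 0.019 in edgeR without the block, 0.090 with total counts, 0.0051 in DESeq2, and -0.086 to 0.023 without an animal), KCNS1 (0.054 with total counts, and -0.35 to 0.13 without an animal), KCNJ16 (-0.95 to 0.039 without an animal) and KCNK18 (-0.22 to 0.32 without an animal). KCNK6 in liver against nervous tissue turned to -0.51 with total counts. The cause was not tested. Members under 10 counts in every control liver numbered 36, so changes there were mostly not detectable at this depth.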
